A study of Homo sapiens with 6 samples.

Results

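The cytosolic ribosomal protein genes encode the proteins of the ribosome that translates nuclear messages. They were taken from the table of counts per gene by symbol: names beginning RPL or RPS followed by a number with an optional A, X or L, the stalk names RPLP0, RPLP1 and RPLP2, and RPSA. A summed count of at least 15 over the 6 libraries was also required. The names of 81 rows matched and 79 genes had enough counts, of 46287 rows in all and 16383 with a count in at least 1 library. The smallest sum among the 79 was 2159 counts for RPS16, while RPL3L, with 14 counts, and RPL10L, with 0, were left out. All 79 passed the filter on low counts, so each is among the 12293 genes tested. Large-subunit proteins accounted for 44 of them, small-subunit proteins for 32, and the stalk of the large subunit for 3.

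Knockout and control libraries came from HaCaT, a line of human skin keratinocytes that became immortal without an added oncogene. The 3 knockout libraries were from cells with a CRISPR/Cas9-induced homozygous knockout of SDR42E1, a gene of the short-chain dehydrogenase/reductase superfamily. The 3 control libraries were from wild-type HaCaT cells. Both were grown as monolayers in the same medium and harvested before confluence, and the study looked for transcripts that depend on SDR42E1, a candidate modulator of vitamin D. Replicates are named biological, but neither separate cultures nor the number of edited clones behind the knockout is stated, so p-values cover only the spread between libraries.

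A ribosome carries 1 copy of nearly every one of these proteins, and cells keep their synthesis balanced, with surplus protein degraded. Most of the messages begin with a terminal oligopyrimidine (TOP) tract, a C followed by a run of C and T at the very 5′ end, through which mTORC1 and the RNA-binding protein LARP1 control how well they are translated. Growing cells such as basal keratinocytes make many ribosomes, MYC drives transcription of ribosome genes, and inherited loss of 1 copy of several members causes Diamond-Blackfan anaemia.

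Summed over the 79 genes, the share of all counts was 6.69, 6.73 and 6.28% in knockout libraries, against 6.68, 6.55 and 6.63% in control libraries. These are 6.57 ± 0.252% in knockout and 6.62 ± 0.0656% in control cells (SD, n = 3 each), a difference smaller than the knockout SD. Within these sums 3 genes were much lower, RPL13, RPL23 and RPL19. Together they made up 0.289 ± 0.0124% of counts in knockout and 0.511 ± 0.00551% in control cells, while the other 76 made up 6.28 ± 0.24% in knockout and 6.11 ± 0.0662% in control cells. For those 76 the shares were 6.40, 6.43 and 6.002% in knockout libraries, against 6.17, 6.04 and 6.12% in control libraries, so the third knockout library was below every control library and the difference of 0.171 percentage points was within the knockout SD. In bulk RNA, fewer cells with a message and less of it per cell cannot be told apart.

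Library totals ran from 11504473 to 13454544 counts in knockout and from 12094896 to 16928201 counts in control cells. SDR42E1 RNA was at 23.2, 20.1 and 20.7 counts per 1000000 of the scaled library total (CPM) in knockout libraries, against 46.8, 47.6 and 48.8 CPM in control libraries. Its log2 fold change was -1.16 (SE 0.08, adjusted p = 2.69e-14). For the marker sums alone, CPM is per 1000000 of the unscaled library total. Summed CPM of 12 keratinocyte markers, none of them at 0 counts, was 9530 to 9542 in knockout and 9396 to 10073 in control libraries. The 7 fibroblast markers summed to 1.09 to 2.08 CPM in knockout and 4.38 to 6.32 CPM in control libraries, with PDGFRA and DCN at 0 counts. The 6 melanocyte markers, TYR at 0, summed to 18.9 to 23.4 CPM in knockout and 24.4 to 25.4 CPM in control libraries. The 7 immune markers, CD3E among those at 0, summed to 8.34 to 9.76 CPM in knockout and 5.9 to 8.92 CPM in control libraries, and the 5 endothelial markers, none at 0, to 1.91 to 2.6 CPM in knockout and 3.72 to 4.37 CPM in control libraries. Other cell types were thus at trace level beside the keratinocyte markers, and their part in the results was not tested.

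Of the 79 genes, 38 rose and 7 fell in knockout cells at an adjusted p under 0.05, and 34 did not pass (edgeR's quasi-likelihood test, adjusted over all 12293 genes). That is 57% of the ribosomal protein genes, beside 50.4% of all genes tested. By direction, 48.1% were higher and 8.86% lower, beside 24.6% and 25.8% of all genes tested. Their median log2 fold change, knockout over control, was 0.10, against -0.00 over all genes. The factors that scale library totals were 0.973, 0.979 and 0.994 in knockout libraries, against 1.013, 1.022 and 1.019 in control libraries. They raise knockout values relative to control values, and no fit used unscaled totals, so the size of small rises depends in part on the scaling. The changes were small: the median absolute log2 fold change was 0.13, against 0.23 over all genes. It was 0.17 over the 142 tested genes at least as abundant as the median ribosomal protein gene. Those 142 include ribosomal protein genes of the set itself. Knockout and control libraries did not overlap for 43 of the 79 (54.4%, beside 56.5% of all genes tested), with knockout above control in 36 and below it in 7. Of the 12293 genes tested, knockout was above control in 3384 and below it in 3567.

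By subunit, 21 large-subunit genes rose (47.7%) and 5 fell (11.4%), 15 small-subunit genes rose (46.9%) and 2 fell (6.25%), and each subunit had a median of 0.10. These shares are near those of the whole set. Apart from the 7 that fell, the whole set lay in a narrow band, from -0.07 for RPL7A to 0.30 for RPS21. The 38 that rose were 1.08-fold to 1.23-fold higher in knockout cells, and for 34 of them every knockout library was above every control library. The same libraries gave the calls, so this separation is no further evidence for the rises.

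**Figure D1:**
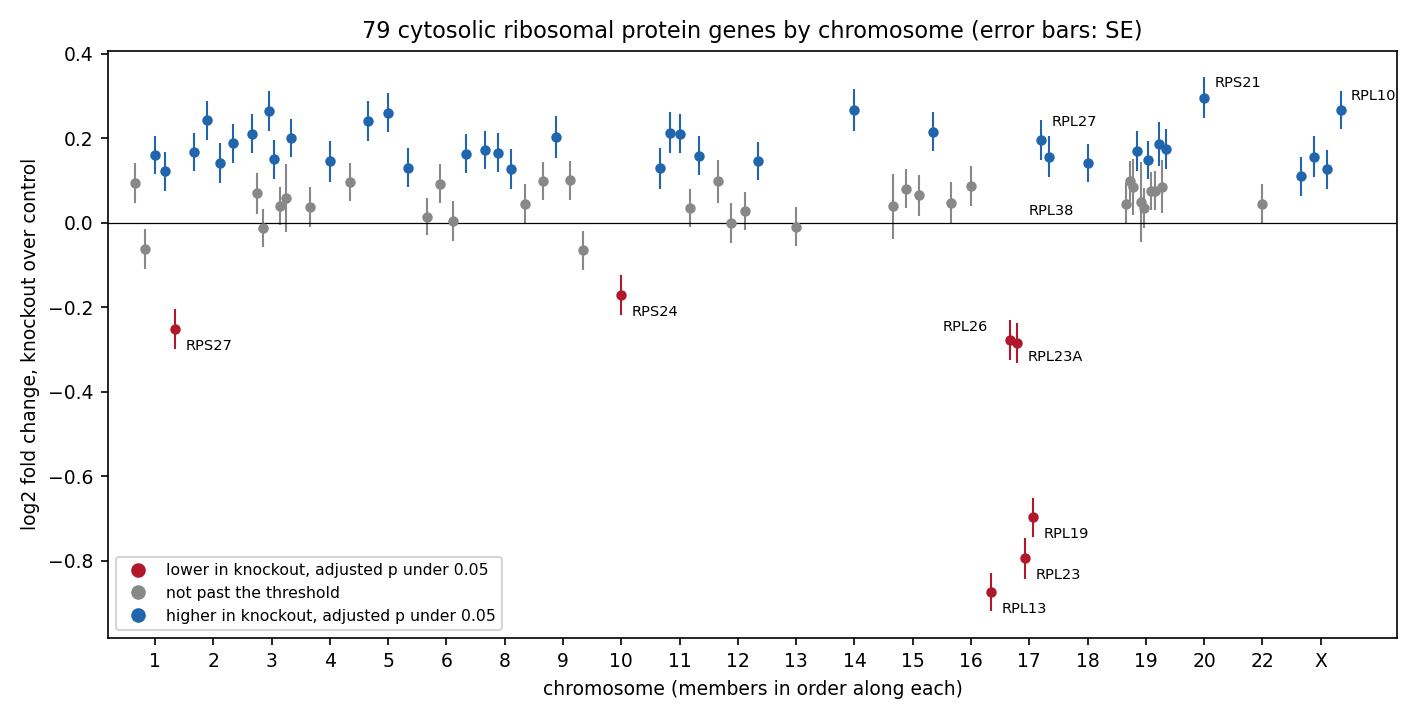
Log2 fold change, knockout over control (vertical axis), of each of the 79 ribosomal protein genes, placed by chromosome in order along it (horizontal axis); bars are the SE, and colour gives the call at an adjusted p under 0.05. Most genes lie between 0 and 0.30, and the 7 lower ones lie on chromosomes 1, 10, 16 and 17, with RPL13, RPL23 and RPL19 below -0.5.

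The start of transcription is shown for 10 of these genes to let the feature they share be seen beside their values: 5 that fell, 3 of the 10 with the highest rises, and 2 whose start lacked it. Each line gives the 20 bases before and the 20 from an annotated start (RefSeq, GRCh38.p14), in the direction of transcription. Where a gene had several annotated starts, as RPL13, RPL19 and RPL10 did, the start with a run at or nearest to it was chosen. In the shares below, a gene has a feature if any of its starts has it. Capitals mark the pyrimidine run counted here, from the first C that lies within 5 bases of the start and is followed by at least 4 C or T. In RPL19 and RPL14 further pyrimidines precede that C, so the capitals are the later portion of a longer run.
RPL13, chr16:89560662-89560701, plus strand: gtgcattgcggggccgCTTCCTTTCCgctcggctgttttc
RPL19, chr17:39200303-39200342, plus strand: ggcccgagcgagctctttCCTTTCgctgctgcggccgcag
RPL26, chr17:8383174-8383213, minus strand: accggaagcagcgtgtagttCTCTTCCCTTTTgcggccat
RPS27, chr1:153990742-153990781, plus strand: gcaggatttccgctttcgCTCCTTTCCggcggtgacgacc
RPS24, chr10:78033843-78033882, plus strand: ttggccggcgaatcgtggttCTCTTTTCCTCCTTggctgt
RPS21, chr20:62387083-62387122, plus strand: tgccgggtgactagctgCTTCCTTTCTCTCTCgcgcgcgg
RPL10, chrX:154398357-154398396, plus strand: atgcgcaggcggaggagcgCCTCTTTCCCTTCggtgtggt
RPL14, chr3:40457319-40457358, plus strand: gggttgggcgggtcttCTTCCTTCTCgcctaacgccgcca
RPL27, chr17:42998399-42998438, plus strand: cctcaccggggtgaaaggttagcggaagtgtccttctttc
RPS27L, chr15:63157458-63157497, minus strand: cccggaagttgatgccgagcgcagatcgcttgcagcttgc

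The promoter table matched 63 of the 79 genes, and 53 of those (84.1%) had such a run near a start, against 25.1% of 27242 other genes in the table and 29.3% of the 9807 other genes that were tested. When the C had to be exactly the first base, 46 of 63 (73%) had it, against 4.98% of other genes and 7.11% of other tested genes. The letters CTTTC were on the transcribed strand between 10 bases before and 20 after a start in 33 (52.4%), against 5.18% of other genes, and on the opposite strand in 2 (3.17%), against 4% of other genes. CTTTC can lie inside the run, so the searches overlap. The median log2 fold change was 0.10 over the 53 genes with the pyrimidine run near a start and 0.08 over the 10 without it. All 5 of the lower genes in the table had the run, as the capitals show for RPL13, RPL19, RPL26, RPS27 and RPS24. In RPL27 a pyrimidine stretch ends the 20 bases after the start but no C within 5 bases of the start met the rule.

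RPL13, a protein of the large subunit, was the lowest of the set. The gene lies on the plus strand of the long arm of chromosome 16, from 89560657 to 89566828 (GRCh38, GENCODE release 29), on the same arm as SDR42E1. Its level was 725, 742 and 691 CPM in knockout libraries, against 1306, 1356 and 1289.7 CPM in control libraries. Every knockout library was far below every control library, and the mean level in knockout cells was 54.6% of that in control cells (log2 fold change -0.87, SE 0.05, adjusted p = 1.91e-18). As a share of the ribosomal protein counts alone, a measure that needs no scaling between libraries, RPL13 was 1.05, 1.08 and 1.09% in knockout libraries, against 1.98, 2.11 and 1.98% in control libraries.

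RPL23 and RPL19 lie close together on the long arm of chromosome 17. RPL23, a large-subunit protein that can also bind MDM2, the ubiquitin ligase of p53, is on the minus strand from 38847865 to 38853843. It was at 908, 942 and 822 CPM in knockout libraries, against 1585, 1506 and 1541 CPM in control libraries (log2 fold change -0.79, SE 0.05, adjusted p = 1.97e-16). No knockout library came near the control range. RPL19, whose protein takes part in a bridge between the subunits, is on the plus strand from 39200283 to 39204732. Its level was 1367, 1378 and 1258 CPM in knockout libraries, against 2191, 2173 and 2125 CPM in control libraries (log2 fold change -0.70, SE 0.05, adjusted p = 1.23e-15). Per length, RPL19 was the most abundant of the 79 in control cells, at 2831 CPM per kb of transcript, against 1746 CPM per kb in knockout cells. Of the ribosomal protein counts, it held 1.99, 2 and 1.99% in knockout libraries, against 3.32, 3.39 and 3.27% in control libraries, so replicates of a group differed little beside the gap.

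The other 4 fell by less. RPL23A, which sits at the mouth of the peptide exit tunnel, is on chromosome 17 (plus strand, 28719393 to 28724359) and was at 862, 841 and 768 CPM in knockout libraries, against 1026, 988 and 995 CPM in control libraries (log2 fold change -0.28, SE 0.05, adjusted p = 3.99e-06). RPL26, another protein near the exit tunnel, also known to bind the p53 message, is on the short arm of chromosome 17 (minus strand, 8377516 to 8383250). It was at 1033, 1066 and 942 CPM in knockout libraries, against 1240.0, 1200.5 and 1243 CPM in control libraries (log2 fold change -0.28, SE 0.05, adjusted p = 6.25e-06). In both genes the third knockout library was the lowest of all 6, and no libraries of the groups overlapped.

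RPS27, a zinc-finger protein of the small subunit, lies on the long arm of chromosome 1 (plus strand, 153990755 to 153992155). Its level was 507, 525 and 462 CPM in knockout libraries, against 599, 582 and 598 CPM in control libraries (log2 fold change -0.25, SE 0.05, adjusted p = 3.75e-05). RPS24, a small-subunit protein needed to process the precursor of its ribosomal RNA, lies on chromosome 10 (plus strand, 78033732 to 78056813). It was at 893, 890.1 and 802 CPM in knockout libraries, against 975, 967 and 969 CPM in control libraries (log2 fold change -0.17, SE 0.05, adjusted p = 0.00235). RPS24 had the log2 fold change nearest to 0 of the 7, and still lay below its control range in all 3 knockout libraries.

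**Figure D2:**
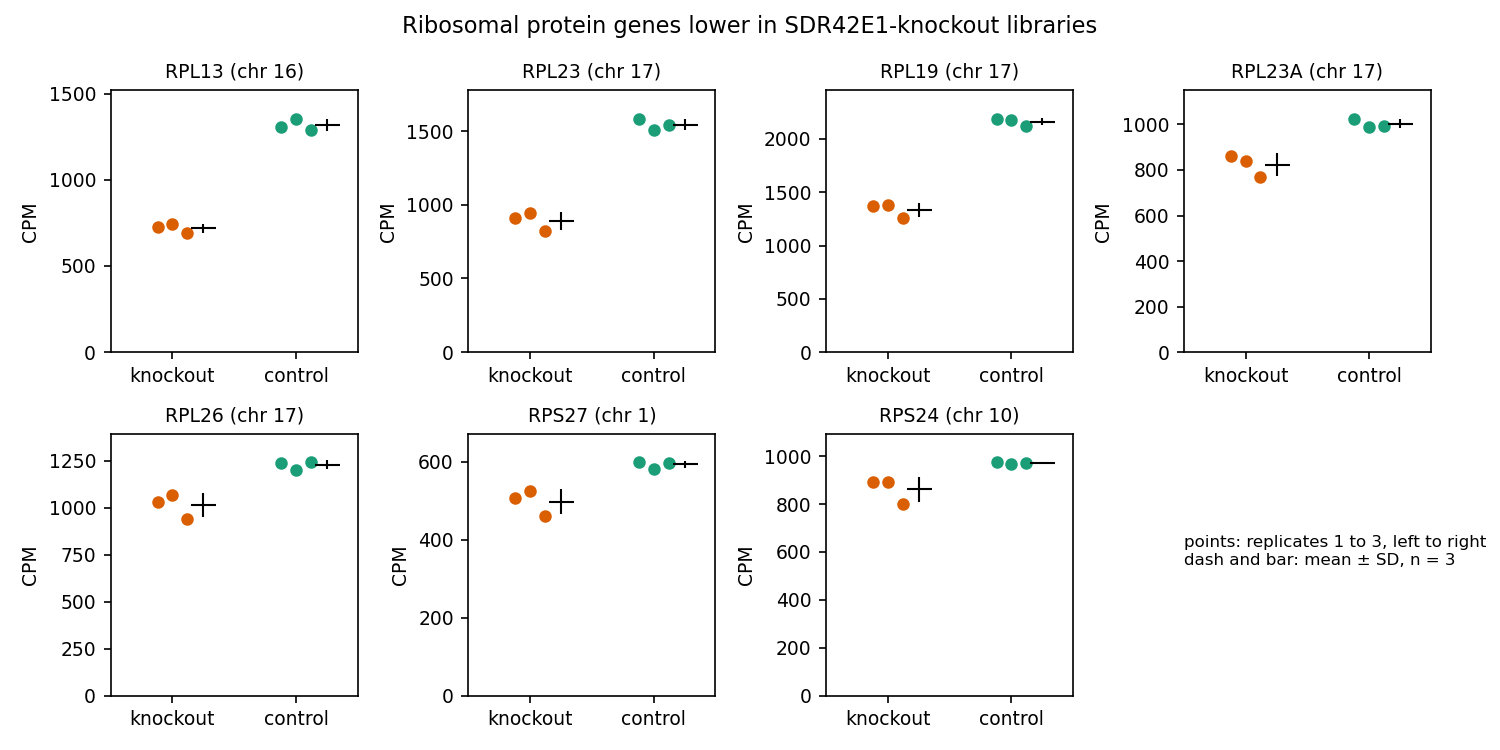
CPM (vertical axis, from 0) of the 7 ribosomal protein genes that fell, 1 panel a gene, with knockout libraries left of control libraries; points are libraries and bars the mean ± SD (n = 3 each). Groups do not overlap in any panel, and the knockout mean is 54.6% of the control mean for RPL13 and 88.8% for RPS24.

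Each gene was set beside its neighbours, meaning the other tested genes with a midpoint within 3 Mb that encode no cytosolic ribosomal protein of the set. RPL13 had 37 such neighbours, 100% of them below 0, and their median was -0.68 on the log2 scale. The 73 neighbours of RPL23 had a median of -0.75 and the 80 of RPL19 a median of -0.70, and many genes are in both windows. For RPL23A the median of 50 neighbours was -0.28, for RPL26 that of 75 was -0.26, and for RPS27 that of 121 was -0.25. Thus 5 of the 7 lay within 0.05 of their neighbours' median, on the log2 scale. RPL13 was 0.19 below it. RPS24 had only 14 neighbours, with a median of -0.32. The 2 within 1 Mb had a median of 0.14 and the 36 within 5 Mb one of -0.24, so its nearest surroundings rest on few genes. Shifts along these chromosomes were already known in these data before this comparison was made, DNA was not analysed here, and what sets the lower level was not tested.

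Over all 79 genes the log2 fold change and the neighbours' median had a Pearson correlation of 0.84 (Spearman 0.49), given as a description, since neighbours share windows and all values share the same 6 libraries. Without the 3 lowest genes Pearson's value was 0.57 over 76 genes (Spearman 0.43). Over 10236 other genes whose mean log2 CPM was 2 or more Pearson's value was 0.25 (Spearman 0.26). Those genes were not matched to the set for level, so whether the set follows its neighbours more closely was not tested. The SD of the log2 fold changes over the 79 genes was 0.20. It was 0.11 for the differences from the neighbours' medians, and the median difference was 0.09.

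Not every gene in a lower stretch was lower. RPL27, a large-subunit protein encoded on the long arm of chromosome 17 (plus strand, 42998273 to 43002959), was at 487, 479 and 443 CPM in knockout libraries, against 410.3, 413 and 406 CPM in control libraries. All knockout libraries were above all control libraries (log2 fold change 0.20, SE 0.05, adjusted p = 0.000668). Its 105 neighbours had a median of -0.35, with 65.7% below 0, and the 40 within 1 Mb a median of -0.36. The difference of 0.55 was the largest of the 79. RPS6, the small-subunit protein that S6 kinases phosphorylate, came next with a difference of 0.40: its own log2 fold change was 0.10 (adjusted p = 0.0717), and that of its 13 neighbours on chromosome 9 had a median of -0.31. RPS6 was at 1332, 1303 and 1215 CPM in knockout libraries, against 1237, 1166 and 1193 CPM in control libraries, and the groups overlapped. RPS6 passed the threshold with a replicate block, limma-voom or DESeq2, and without control replicate 1 or knockout replicate 3.

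**Figure D3:**
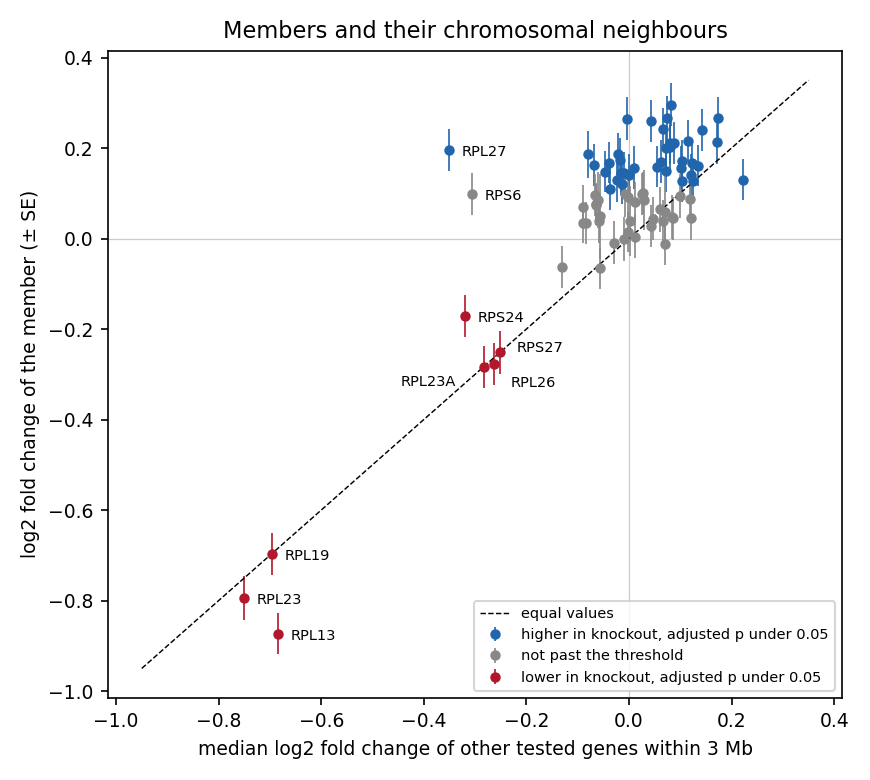
Log2 fold change, knockout over control, of each of the 79 ribosomal protein genes with its SE (vertical axis) against the median log2 fold change of the other tested genes within 3 Mb (horizontal axis); the dashed line marks equal values and colour gives the call. The 7 lower genes lie at the lower left, 5 of them within 0.05 of the line, RPL13 below it by 0.19 and RPS24 above it by 0.15, and RPL27 and RPS6 lie above it by 0.55 and 0.40.

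RPL38, further along the same arm of chromosome 17 and known in mouse for its part in patterning the axial skeleton, was at 339, 340.0 and 309 CPM in knockout libraries, against 304, 295 and 287 CPM in control libraries. It rose (log2 fold change 0.16, SE 0.05, adjusted p = 0.00725), and its neighbours had a median of 0.10. Without control replicate 3 the call of RPL38 was lost. On the short arm of chromosome 16, RPS2, a protein at the entry of the message channel, had a value of 0.05 on the log2 scale (adjusted p = 0.444), and RPS15A had 0.09 (adjusted p = 0.13). Of the whole set 48.1% rose, beside 24.6% of all genes tested. On other chromosomes, all 4 genes on chromosome 2, all 3 on chromosome 5 and all 4 on the X chromosome rose, and of 12 on chromosome 19, 4 rose and 8 did not pass. Among these, RPL31, RPS14, RPS4X, RPL39, RPL36A and RPL18 each lost the call in at least 1 fit with a library left out. Elsewhere, 1 of 4 rose on each of chromosomes 6, 9, 12 and 15, and 1 of 3 on chromosome 4. On chromosomes 1, 3, 8 and 11, 2 of 5, 4 of 8, 3 of 4 and 4 of 5 rose. The only gene on each of chromosomes 14, 18 and 20 rose, and those on 13 and 22 did not pass. Shares over all genes of each chromosome were not computed.

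The highest rise was that of RPS21, a small protein of the small subunit, encoded on chromosome 20. It was at 396, 400.4 and 362 CPM in knockout libraries, against 315, 317 and 311 CPM in control libraries, with no overlap (log2 fold change 0.30, SE 0.05, adjusted p = 2.66e-06). RPL10, which joins the large subunit late in its assembly and reaches towards the catalytic centre, was at 1485, 1432 and 1351 CPM in knockout libraries, against 1154, 1191 and 1204 CPM in control libraries (log2 fold change 0.27, SE 0.05, adjusted p = 6.7e-06). RPL14, a large-subunit protein, was at 404, 379.8 and 366 CPM in knockout libraries, against 329, 314 and 314 CPM in control libraries (log2 fold change 0.26, SE 0.05, adjusted p = 1.68e-05). In all 3 genes the third knockout library was the lowest of its group and still above every control library.

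Others of the 10 highest rose by 0.21 to 0.27. RPS29, a zinc-binding protein of the small subunit whose start lacked the pyrimidine run, averaged 406 ± 23.1 CPM in knockout and 338 ± 14.6 CPM in control cells (log2 fold change 0.27). RPS23, a protein of the decoding centre, averaged 1011 ± 47.3 CPM in knockout and 845 ± 18.6 CPM in control cells (0.26 on the same scale). RPS27A, made as a fusion with ubiquitin, averaged 1156 ± 53.3 CPM in knockout and 978 ± 34.2 CPM in control cells (0.24). The large-subunit proteins RPL37 (0.24), RPL27A (0.21) and RPL32 (0.21) rose by similar steps, each with no overlap between groups.

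The stalk proteins, which recruit elongation factors to the large subunit, were measured as RPLP0, RPLP1 and RPLP2. RPLP0, their base, was at 2696, 2655 and 2427 CPM in knockout libraries, against 2357, 2333 and 2343 CPM in control libraries, and rose (log2 fold change 0.15, SE 0.05, adjusted p = 0.00732). RPLP2 averaged 541 ± 31.8 CPM in knockout and 494 ± 16.3 CPM in control cells (0.13, adjusted p = 0.0252), where knockout replicate 3 lay just under control replicate 1. RPLP1 averaged 290.1 ± 8.55 CPM in knockout and 277 ± 16.7 CPM in control cells and did not pass (0.06, adjusted p = 0.285). RPL5 and RPL11, which travel with the 5S ribosomal RNA and bind MDM2 when assembly fails, had opposite signs. RPL5 averaged 1118 ± 48.8 CPM in knockout and 1028 ± 30.5 CPM in control cells (0.12, adjusted p = 0.0259). RPL11 averaged 649 ± 30.2 CPM in knockout and 677 ± 18.1 CPM in control cells (-0.06, adjusted p = 0.274). The difference between RPL5 and RPL11 was not tested. The calls of RPL5 and RPLP2 were lost under upper-quartile scaling and without any 1 of 4 libraries: control replicates 2 and 3 and knockout replicates 1 and 2.

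Of 4 listed paralogs of other ribosomal protein genes, RPL39L and RPS27L were in the set. RPL39L, known from testis and tumours, was at 44.5, 43.9 and 36.6 CPM in knockout libraries, against 41.5, 39.5 and 39.0 CPM in control libraries (log2 fold change 0.06, adjusted p = 0.569). RPS27L, a p53 target, was at 39.9, 42.4 and 38.1 CPM in knockout libraries, against 40.7, 38.4 and 38.3 CPM in control libraries (0.04, adjusted p = 0.706). In both the groups overlapped, with the third knockout library the lowest of the 6. RPS27 fell while the value of its paralog RPS27L was 0.04. The difference between the paralogs was not tested. Among 8 parents of paralogs, 4 rose (RPL10, RPL7, RPL36A and RPL39), 2 fell (RPS27 and RPL26), and RPL3 (0.04, adjusted p = 0.45) and RPL22 (0.09, adjusted p = 0.101) did not pass.

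Of 20 Diamond-Blackfan anaemia genes in the set, 9 rose, 3 fell and 8 did not pass, and the median was 0.10. That is 45% higher and 15% lower, near the 48.1% and 8.86% of the whole set. Over all genes tested the shares were 24.6% and 25.8%. RPL26, RPS29 and RPS27 were among the 4 with the smallest adjusted p, and of these RPL26 and RPS27 fell and RPS29 rose. RPS19, the gene most often mutated in that disease, was at 537, 529 and 486 CPM in knockout libraries, against 509, 494 and 513 CPM in control libraries (0.03, adjusted p = 0.576). Introns of 28 of the 79 genes hold small nucleolar RNA genes, and those hosts had a median of 0.11, against 0.10 for the other 51.

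Levels per length are given as CPM per kb of the median coding transcript in GENCODE. The quartiles over the 79 genes were 668, 1031 and 1459 CPM per kb in knockout cells, and 657, 911 and 1380.1 CPM per kb in control cells. RPL39, a short protein in the exit tunnel, was highest in knockout cells, at 3078 CPM per kb, against 2819 CPM per kb in control cells. At the other end, RPS28 was at 44.3 CPM per kb in knockout and 41.7 CPM per kb in control cells, RPS16 at 49.5 CPM per kb in knockout and 47.5 CPM per kb in control cells, and RPL28 at 142 CPM per kb in knockout and 134 CPM per kb in control cells. These 3 are not among the paralogs named above, and their low counts were seen in every library. Many ribosomal protein genes have near-identical processed pseudogenes, and RPL17, RPS10 and RPL36A overlap readthrough loci, so the counting could have split reads and levels between genes are uncertain. RPSAP58, the tested pseudogene row, averaged 57.2 ± 6.73 CPM in knockout and 59.4 ± 4.58 CPM in control cells (log2 fold change -0.05, adjusted p = 0.64). RPSA itself, also known as the laminin receptor, had -0.01 (adjusted p = 0.834).

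The third knockout library stood apart from the other two for most of the set. Over the 72 genes that did not fall, the median log2 CPM minus the control mean was 0.16 and 0.16 in knockout libraries 1 and 2 and 0.04 in knockout library 3, against 0.02, -0.02 and -0.00 in the control libraries. In those knockout libraries, 70, 68 and 48 of the 72 genes were above their control mean. The median coefficient of variation over replicates, taken over the 79 genes, was 5.07% in knockout and 2.49% in control cells, against 6.88% in knockout and 5.72% in control cells over all genes whose mean log2 CPM was 0 or more. Without knockout replicate 3, 53 genes rose, 7 fell and the median was 0.16. Leaving out another library in turn gave 28 to 38 rises, and the 7 falls were called each time.

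**Figure D4:**
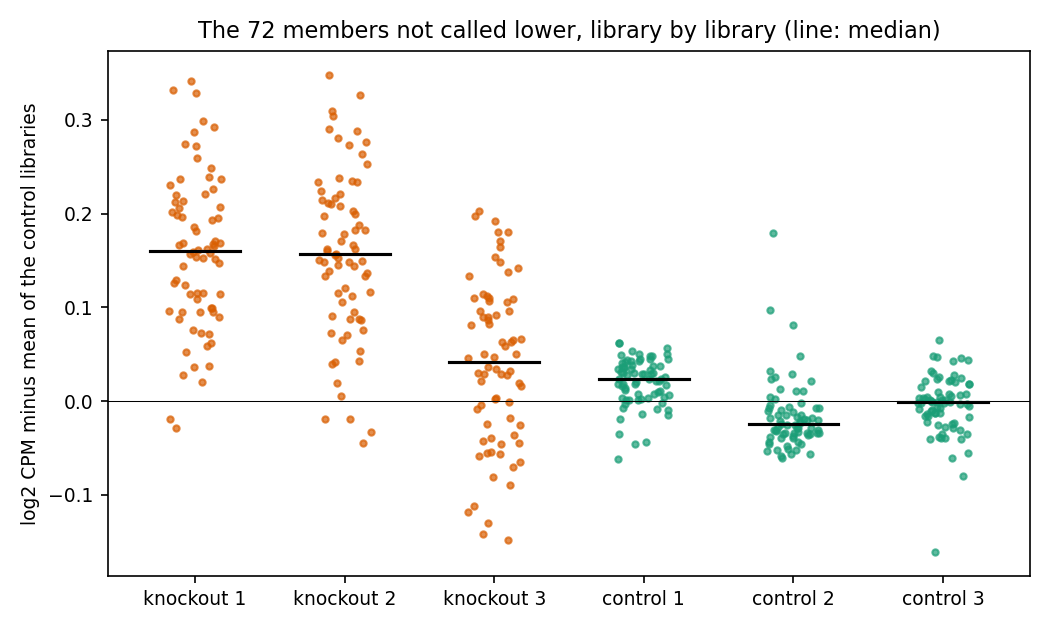
Log2 CPM minus the mean of the control libraries (vertical axis) of the 72 ribosomal protein genes that did not fall, in each of the 3 knockout and 3 control libraries (horizontal axis); points are genes and the line is the median. Knockout libraries 1 and 2 have medians of 0.16, and knockout library 3 lies lower, at 0.04, near the control libraries.

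Several related lists, given with log2 fold changes, had medians further from 0. Beside the counts below, 24.6% of all genes tested rose and 25.8% fell. The 7 proteins that belong to or resemble the ribosome but lie outside the name rule all rose, and their median was 0.29. FAU, whose product is cut to yield the small-subunit protein eS30, was at 384, 390.3 and 356 CPM in knockout libraries, against 306, 307 and 314 CPM in control libraries (0.29, adjusted p = 4.35e-06). RPL7L1 (0.45) and RPL36AL (0.33), relatives of RPL7 and RPL36A, rose as well.

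Of 48 ribosome biogenesis genes, which include subunits of RNA polymerase I, 40 rose and 0 fell, with a median of 0.36. RRS1, EIF6 and NPM1 are among them and are counted again in lists below. DKC1, the pseudouridine synthase of ribosomal RNA, averaged 348 ± 3.36 CPM in knockout and 216 ± 20.4 CPM in control cells (0.69, adjusted p = 1.07e-12). WDR43, a subunit of the early small-subunit processome, averaged 332 ± 10.4 CPM in knockout and 188 ± 20.3 CPM in control cells (0.83, adjusted p = 3.26e-11). The nucleolar GTPases GNL3 (0.57) and GNL2 (0.51) rose too. Among 11 dedicated chaperones and import factors of ribosomal proteins 7 rose, RRS1 (0.58), GRWD1 (0.41), RPF2 (0.32) and PDCD2 (0.27) with the smallest adjusted p. The 1 that fell was HEATR3 on chromosome 16 (-0.26, adjusted p = 0.00137), whose neighbours had a median of -0.45.

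Of 37 translation factors 24 rose and 1 fell, with a median of 0.21. EIF3M averaged 554 ± 26.3 CPM in knockout and 406 ± 4 CPM in control cells (0.45, adjusted p = 2.9e-10), and ETF1, the release factor, rose by 0.44. EIF3G (0.45) and EIF1AX (0.41) had the next smallest adjusted p. EIF1, the factor that guards start codon choice, fell by 0.21, and its neighbours on chromosome 17 had a median of -0.60. Among 22 other TOP messages, which include FAU and several of these factors, 18 were tested and 9 rose, 0 fell, with a median of 0.12. NPM1 (0.31) and PABPC1 (0.35) were among those that rose. In 1 of the 18 all knockout libraries were below all control libraries without passing the threshold.

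Regulators of the set went both ways: of 17, 8 rose and 4 fell, with a median of 0.17. MYC was at 227, 223 and 199.7 CPM in knockout libraries, against 129.6, 109.9 and 110.2 CPM in control libraries, a clear separation (0.89, SE 0.06, adjusted p = 4.6e-11). LARP1, which holds TOP messages back from translation, averaged 250.3 ± 21.4 CPM in knockout and 180.0 ± 3.68 CPM in control cells (0.48, adjusted p = 2.59e-09). DDIT4, an inhibitor of mTORC1, fell by 0.65, and MXD4, an antagonist of MYC, fell by 1.31. Their neighbours had medians of -0.22 for DDIT4 and 0.02 for MXD4. Of 78 mitochondrial ribosomal protein genes, which serve a separate ribosome, 37 rose and 10 fell, with a median of 0.14. MRPS14 on chromosome 1 fell (-0.57), and its neighbours had a median of -0.40. MRPS15 (0.40), MRPL30 (0.35) and MRPS17 (0.42) rose, with neighbours' medians of 0.21, 0.04 and 0.21. Of 37 mitochondrially encoded genes 13 were tested, 0 rose and 7 fell, with a median of -0.21. The counts of 0 given for ribosome biogenesis genes, other TOP messages and mitochondrially encoded genes by edgeR were also 0 at an unadjusted p under 0.05, and 0 with DESeq2 and limma-voom. Of 16 noncoding or other hosts of small nucleolar RNAs, 15 had 0 counts, and TAF1D, the 1 tested, rose by 0.40. Of the 37 mitochondrially encoded genes 24 had 0 counts. How reads were counted is not known, so these counts of 0 cannot be read as absence of the RNA.

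**Figure D5:**
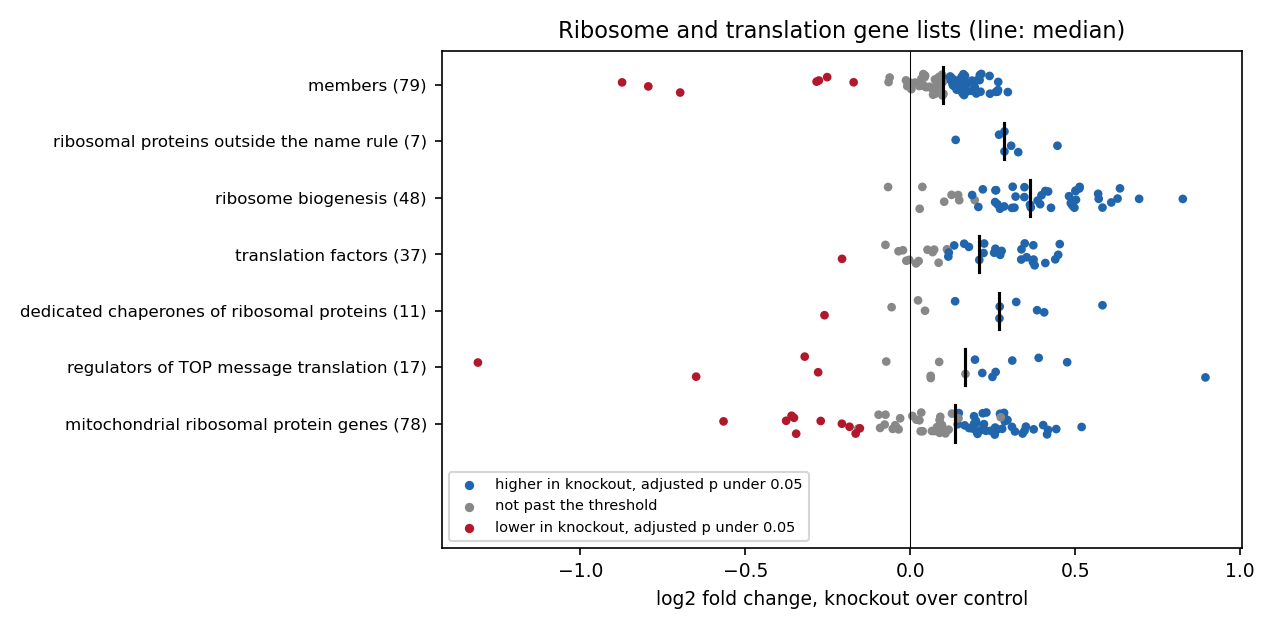
Log2 fold change, knockout over control (horizontal axis), of the 79 ribosomal protein genes and of the tested genes of 6 related lists (rows, number tested in brackets); points are genes, coloured by the call at an adjusted p under 0.05, and the bar is the median. The ribosomal protein genes have a median of 0.10 and ribosome biogenesis genes a median of 0.36.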

How the data were processed

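RNA was measured in 6 HaCaT libraries, 3 homozygous SDR42E1 knockout and 3 wild-type control, from stranded total RNA per the labels' protocols. The authors deposited raw counts per gene in 1 table, whose columns were matched to samples by name. Per the submitters' processing notes the genome was GRCh38. The aligner, counter and use of strand were not given in the sources used here. Genes passing filterByExpr (at least 10 counts, 15 in total) were scaled by TMM and tested by the robust quasi-likelihood F test of edgeR 4.0.16 (R 4.3.3), two-sided, with p adjusted by Benjamini-Hochberg over 12293 genes and a threshold of 0.05. Fold changes use a prior count of 0.125, SE is the absolute log2 fold change divided by the root of F, and CPM uses TMM-adjusted totals. Only the summed CPM of cell type markers uses unscaled totals. The fit was tested on simulated counts. Replicates of a group differed beyond sampling noise, with chi-square over its degrees of freedom at 2.65 to 4.49. Positions came from GENCODE release 29 and start sequences from RefSeq. Named genes are the 10 highest rises, all falls, stalk, 5S and paralog genes, those on chromosome arms 16q and 17q, extremes of level, and up to 4 per list by adjusted p. RPS6, RPS19, RPSA, RPL7A, RPL28, EIF1 and HEATR3, and the genes named for lost calls, were added with their values known. A few genes that this rule names are not reported here. The set and the lists were chosen with earlier results of these data known. Alternatives were DESeq2 1.42.0, limma-voom (limma 3.58.1), RLE and upper-quartile scaling, TMM without the set, other filters, a replicate block and leaving out each library. Neighbour windows of 1 and 5 Mb were added after seeing the data.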

Additional observations from a re-analysis of the deposited data

How the results depend on the processing

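Over 14 other settings 51 of the 79 ribosomal protein genes kept their side of the threshold. The other 28 crossed it under at least 1 setting (13 that had passed and 15 that had not). Of the genes that passed under any setting, 0 changed sign. Among those that never passed, some changed sign, such as RPL10A (log2 fold changes of -0.04 to 0.05) and RPS16 (-0.02 to 0.15). The 7 falls were called under all 14. The number of rises was 38 with RLE scaling, TMM without the set, no filter on low counts and at least 1 CPM in 3 libraries, 32 with upper-quartile scaling, 40 with limma-voom and 42 with DESeq2. With 1 library left out it ran from 28 to 53, the median log2 fold change of the set from 0.09 to 0.16, and genes called over the whole table from 5338 to 6074. Replicate numbers did not pair the samples (correlations of deviations 0.02, -0.09 and -0.01), and a replicate block gave 41 rises and 7 falls. Across all settings RPL13 had log2 fold changes of -0.90 to -0.84, RPL23 of -0.83 to -0.74, RPL19 of -0.73 to -0.65, RPS24 of -0.20 to -0.12, RPL27 of 0.17 to 0.24 and RPS21 of 0.27 to 0.34. The difference in the set's share of counts was -0.13 to 0.09 percentage points with 1 library left out, its sign turning positive without knockout replicate 3, and -0.06 without mitochondrially encoded genes. The correlation with neighbours was 0.78 within 1 Mb and 0.80 within 5 Mb. Changes under 0.1 on the log2 scale are near the limit of 3 libraries a group, since SEs of most of the set are about 0.05.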
